A study of Mus musculus with 3 samples.

Results

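The genes of non-muscle myosin II and the kinases that activate it were examined in KO-actin cells, a line of β-actin knockout mouse embryonic fibroblasts (MEFs) made to express β-actin that carries a nuclear localization signal (NLS). The 10 genes were chosen by symbol among the 46603 genes of the count files. They comprise the heavy chains Myh9, Myh10 and Myh14, the essential light chain Myl6, the regulatory light chains Myl9, Myl12a and Myl12b, and the kinases Mylk, Rock1 and Rock2. RNA-Seq of polyadenylated RNA was available for 3 libraries of this 1 condition, numbered as replicates 1 to 3, and libraries of wild-type or knockout cells were not analysed here, so every comparison is between genes or between libraries of KO-actin cells. The promoter driving NLS-tagged β-actin, and whether the cells are a single clone, are not given in the sources used here. Nothing in the labels says that the libraries are separate cultures, and p-values therefore measure only the spread between these libraries, which may be technical.

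Non-muscle myosin II is the motor that pulls on actin filaments in cells other than muscle, and it drives contraction of stress fibres, cell migration and the cleavage of dividing cells. Each molecule joins a pair of heavy chains, which hold the motor domain and the rod that assembles into filaments, with essential light chains that stiffen the lever arm and regulatory light chains that switch the motor on. Phosphorylation of a serine and a neighbouring threonine of the regulatory light chain activates it. Myosin light chain kinase, the product of Mylk, carries this out in response to calcium and calmodulin, whereas the kinases ROCK1 and ROCK2 phosphorylate the light chain and also inhibit the phosphatase that reverses the mark.

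The coding sequence around the phosphorylated pair is shown for the regulatory light chains, because their likeness bears on how reads can be assigned to each gene. The sequences are from GENCODE M21 transcripts on GRCm38, written 5′ to 3′ on the coding strand, and capitals mark the threonine and serine codons. They lie at chr2:156778581-156778622 on the plus strand for Myl9, and on the minus strand at chr17:70996803-70996844 for Myl12a and chr17:70977154-70977195 for Myl12b.
Myl9: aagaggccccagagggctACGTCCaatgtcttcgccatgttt
Myl12a: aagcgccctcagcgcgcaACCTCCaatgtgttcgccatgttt
Myl12b: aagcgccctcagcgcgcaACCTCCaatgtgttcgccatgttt
Over these 42 bases Myl12a and Myl12b were identical, and Myl9 matched either at 34 positions. Over the 516 coding bases Myl12a and Myl12b had 96.5% identity, Myl9 and Myl12a 85.7%, and Myl9 and Myl12b 86.4%. The longest run that Myl12a and Myl12b share at the same coding position covers the final 102 coding bases, which lie at chr17:70994615-70994716 in Myl12a and chr17:70974327-70974428 in Myl12b.
Myl12a and Myl12b: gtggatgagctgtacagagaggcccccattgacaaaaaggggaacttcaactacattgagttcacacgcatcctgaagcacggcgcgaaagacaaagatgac
A read that falls wholly within this run matches both genes.

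The libraries held 49932446, 49587453 and 44383636 counts for replicates 1, 2 and 3, and CPM are these counts scaled to a common library total with TMM. A gene without counts could still have up to 3, and this floor was 0.0601, 0.0609 and 0.0671 CPM in turn, for counting error only. Replicate 2 stood apart. Over 13814 genes its chi-square, divided by the degrees of freedom, was 11.2 against replicate 1 and 10.8 against replicate 3, where replicates 1 and 3 gave 3.78. Of 10 fibroblast markers 9 exceeded the floor in all libraries, at a summed level of 12137 to 13136 CPM that was mostly Vim, Col1a1 and Fn1. Col3a1 averaged 268 CPM and Pdgfrb 125, but Col1a2 only 21.0, where Col1a1 had 4058, and Postn 14.9. Dcn had only 8, 8 and 6 counts, Pdgfra averaged 4.97 CPM, and Lum was at 0 counts. Of 9 smooth muscle markers 7 were above the floor, with a sum of 7835 to 8038 CPM that was mostly Acta2, while Myh11, the smooth muscle myosin heavy chain, had 3, 7 and 6 counts and Myocd had 3, 7 and 2. Striated muscle markers summed to 13.9 to 14.4 CPM, mostly Tnnt2 with 569, 590 and 519 counts, and Myod1, Myog and Ckm were at 0. Epithelial markers summed to 80.2 to 88.9 CPM, carried by Krt19 with a mean of 44.1 CPM and Krt18 with 37.9, while Epcam had 0, 1 and 0 counts. Blood markers summed to 10.9 to 12.9 CPM, almost all from Cd74 with 560, 606 and 458 counts, while Ptprc had 0, 1 and 0. In bulk RNA, fewer cells of a type and less RNA per cell cannot be told apart.

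Myh9, which encodes the heavy chain of non-muscle myosin IIA, was the most abundant of the 10 genes by CPM. Its position in GRCm38 is chromosome 15, minus strand, bases 77760587 to 77842175. The levels of replicates 1, 2 and 3 were 4011, 4103 and 3914 CPM, averaging 4009 ± 94.2 (SD, n = 3). It ranked 9 by mean CPM among the 13814 genes whose counts reached 10 in all libraries and took 0.401% of all counts. Myh10, the heavy chain of myosin IIB, is on chromosome 11 from 68691559 to 68816632 on the plus strand and had 432, 436 and 434 CPM. Its mean of 434 ± 1.73 CPM (SD, n = 3) was the steadiest of the 10 genes, with a highest library only 1.01-fold above the lowest. Myh14, the heavy chain of myosin IIC, is encoded on chromosome 7, bases 44605803 to 44670843 of the minus strand. Its libraries held 624, 670 and 520 counts, or 12.5, 13.6 and 11.6 CPM, and was thus well above the floor in every library but far below the other heavy chains. The heavy chains did not overlap in any library, and their order was the same in all 3.

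Levels of different genes were compared per kilobase, by dividing CPM by the union of a gene's annotated exons. On this scale Myh9 had 310 ± 7.29 CPM per kb, Myh10 41.5 ± 0.165 and Myh14 1.73 ± 0.135 (SD, n = 3 for each). Myh9 lay above Myh10 by 7.47-fold, with 7.30-fold to 7.61-fold in single libraries, and above Myh14 by 180-fold, with 170-fold to 189-fold. The excess over Myh14 was 279-fold with the longest transcript, 331-fold with the coding length and 319-fold without length correction. Myh9 therefore made up 87.8% ± 0.199 of the summed heavy chain level per kilobase, Myh10 11.7% ± 0.225 and Myh14 0.489% ± 0.0277 (SD, n = 3). The Myh14 share was 0.272% with the coding length. The share of Myh9 was 90.3% when the longest transcript was used as the length and 90.1% with the coding length. Little of either mRNA is found in another gene, namely 1.12% of all 50-base windows for Myh9 and 0.943% for Myh10.

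Myl6, the essential light chain of non-muscle and smooth muscle myosin, is encoded on chromosome 10, bases 128490860 to 128494145 of the minus strand. Its level was 751, 775 and 754 CPM, a mean of 760 ± 12.8 CPM (SD, n = 3). Its libraries spanned 1.03-fold. Part of its mRNA has copies elsewhere, namely 18.5% of its windows of 50 bases and 7.90% of those of 100 bases. The processed pseudogenes that share most of these windows held few counts. Gm5526 had 49, 81 and 55, and Gm10080 had 43, 31 and 39, so that Gm5526 amounted to 0.169% of the Myl6 level in CPM and Gm10080 to 0.104%. How reads with several matches were counted is not given in the sources used here. Myl6b, another essential light chain gene, had 11.6 ± 1.37 CPM (SD, n = 3), and per kilobase 6.29 ± 0.741 against 239 ± 4.01 for Myl6.

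Among the regulatory light chains, Myl12a and Myl9 were both high and Myl12b was about an order of magnitude lower by CPM. Myl9, on chromosome 2 from 156775420 to 156781658 on the plus strand, is the form best known from smooth muscle. The CPM of its libraries were 830, 886 and 805, averaging 840 ± 41.7 (SD, n = 3). Myl12a, on chromosome 17 from 70993656 to 71002878 on the minus strand, had 1113, 1168 and 1066 CPM with a mean of 1116 ± 50.9 (SD, n = 3). Myl12b is its neighbour on the same strand, from 70973133 to 70990890, and had 97.8, 113 and 103 CPM with a mean of 105 ± 7.52 (SD, n = 3). Replicate 2 was the highest library for each regulatory light chain, and the genes did not overlap with one another.

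Per kilobase of exon the regulatory light chains had 723 ± 35.9 CPM for Myl9, 332 ± 15.2 for Myl12a and 37.8 ± 2.71 for Myl12b (SD, n = 3 for each). Myl12a was above Myl12b by 8.80-fold per kilobase, with 8.51-fold to 9.39-fold in single libraries, and by 11.8-fold with the longest transcript as the length. The order of Myl9 and Myl12a rested on the length used. With the union of exons Myl9 held 66.2% ± 0.0979 of the summed regulatory light chain level, Myl12a 30.4% ± 0.242 and Myl12b 3.45% ± 0.162 (SD, n = 3). With the longest transcript Myl9 held 54.4% and Myl12a 42.1%, and with the coding length, which is 516 bases for both, Myl9 held 40.8% and Myl12a 54.1%. The annotated exons of Myl12a add up to 3360 bases over 10 transcripts and those of Myl9 to 1162 bases over 4 transcripts.

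Reads of Myl12b and Myl12a can be shared with other gene models. In GENCODE M21 a further gene model with the same symbol, which was not among the genes of the count files, spans both loci from 70974119 to 71002208 and covers 26.7% of the exonic bases of Myl12b and 13.8% of those of Myl12a. Leaving out this model, 11.4% of the 50-base windows of the Myl12b mRNA have a copy elsewhere, and 1.03% of its 100-base windows. For Myl12a these shares were 11.5% and 1.14%, and for Myl9 0% and 0%. Exons of Myom1, with 110, 83 and 91 counts, overlap 6.16% of the exonic bases of Myl12a on the opposite strand. The read length is not known. Scaling the lengths down by the 50-base shares left Myl12a above Myl12b by 8.82-fold. The shares of these genes are nearly equal and the counts were not changed, so this cannot show how shared reads were assigned.

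**Figure D1:**
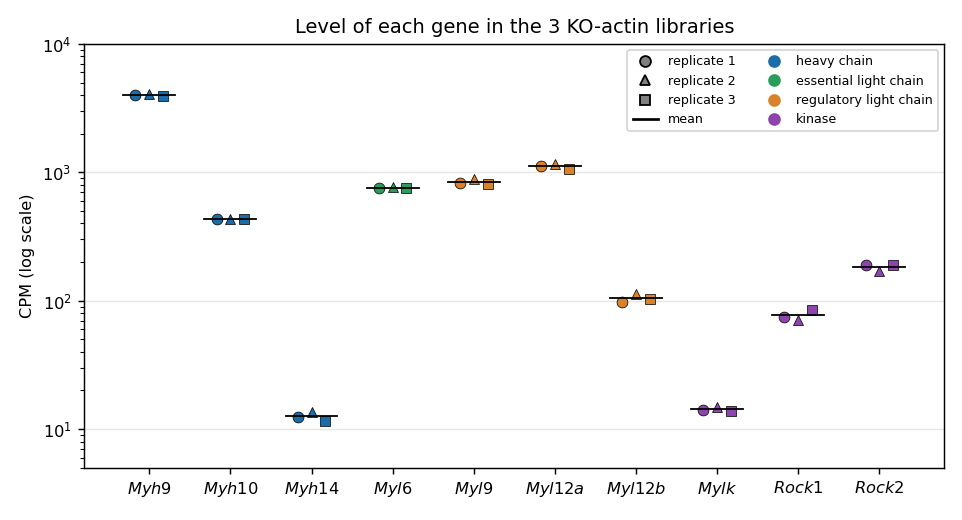
CPM on a log axis for the 10 genes, with 1 marker for each of the 3 KO-actin libraries (shape: replicate, colour: role) and a line at the mean. Myh9 stands highest, with 3914 to 4103 CPM, and Myh14 and Mylk lowest, with 11.6 to 14.9 CPM.

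Among the kinases Rock2 was the highest and Mylk the lowest, and Rock2 was above Myl12b and Myh14 by CPM. Rock2, on chromosome 12 from 16894895 to 16987823 on the plus strand, had 189, 170 and 188 CPM, a mean of 182 ± 10.7 (SD, n = 3). Rock1, on chromosome 18 from 10064401 to 10182045 on the minus strand, had 75.2, 70.5 and 84.6 CPM with a mean of 76.8 ± 7.19 (SD, n = 3). Both were lowest in replicate 2. Rock1 spanned 1.20-fold between libraries, the widest of the 10 genes. Mylk, on chromosome 16 from 34745210 to 35002420 on the plus strand, had 14.1, 14.9 and 13.8 CPM with a mean of 14.3 ± 0.594 (SD, n = 3). The gene produces long and short forms of the kinase and telokin, a form without the kinase domain, and counts per gene do not separate them. Antisense genes absent from the count files overlap 6.85% of its exonic bases. The strand setting of the counting is not stated, so reads of those genes cannot be told apart from Mylk reads.

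Per kilobase Rock2 had 13.1 ± 0.773 CPM, Rock1 4.24 ± 0.397 and Mylk 1.27 ± 0.0527 (SD, n = 3 for each). Rock2 exceeded Rock1 by 3.10-fold, with 2.89-fold to 3.27-fold in single libraries, and Rock1 made up 24.4% ± 1.14 of the summed ROCK level (SD, n = 3). With the longest transcript the excess of Rock2 was 1.87-fold to 2.11-fold in single libraries and the share of Rock1 33.3%, since the annotated exons of Rock1 reach 18094 bases where its longest coding transcript has 6440. Rock1 and Rock2 together were above Mylk by 13.7-fold, with 12.2-fold to 14.9-fold in single libraries, 19.6-fold with the longest transcript and 25.7-fold with the coding length. Of the 50-base windows of Rock1, 3.13% occur in a pseudogene that is absent from the count files, and for Rock2 none of 7595 windows was shared with another gene.

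In order of CPM per kilobase the genes were Myl9, Myl12a, Myh9, Myl6, Myh10, Myl12b, Rock2, Rock1, Myh14 and Mylk. Each of the 9 neighbouring pairs kept its direction in all 3 libraries. An exact two-sided sign-flip permutation test gave p = 0.25 for every pair, also after Benjamini-Hochberg adjustment over the 9 pairs, which is the smallest value that 3 libraries allow. The pairs were taken from the mean order of these same libraries. The test therefore could not decide the order, and nothing is concluded from it. Myl12a and Myh9 overlapped, the lowest library of Myl12a (317.28 CPM per kb) lying just under the highest library of Myh9 (317.34), although within each library Myl12a was higher, by 0.10 ± 0.03 on the log2 scale (SD, n = 3). The remaining 8 pairs did not overlap, although Myh10 and Myl12b came close, with 41.4 as the lowest library of Myh10 and 40.7 as the highest of Myl12b. Over 5 ways of treating length (4 lengths and plain CPM), Myl9, Myl12a, Myh9 and Myl6 always took ranks 1 to 4, Myh10, Myl12b and Rock2 ranks 5 to 7, Rock1 rank 8, and Myh14 and Mylk ranks 9 and 10. The order within these tiers changed with the length. Among 12081 protein-coding genes tested, Myl9 stood at percentile 99.8 per kilobase of exon, Myl12a and Myh9 at 99.3 and Myl6 at 99.0. Rock2 was at 65.2, Rock1 at 37.3, Myh14 at 22.4 and Mylk at 18.9. These percentiles rest on the union of exons, which for Rock1 is 18094 bases against 6440 in its longest transcript. Percentiles with other lengths were not computed. By mean CPM without length correction, Rock2 ranked 1214, Rock1 3471, Mylk 8543 and Myh14 8788 among the 13814 genes tested.

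**Figure D2:**
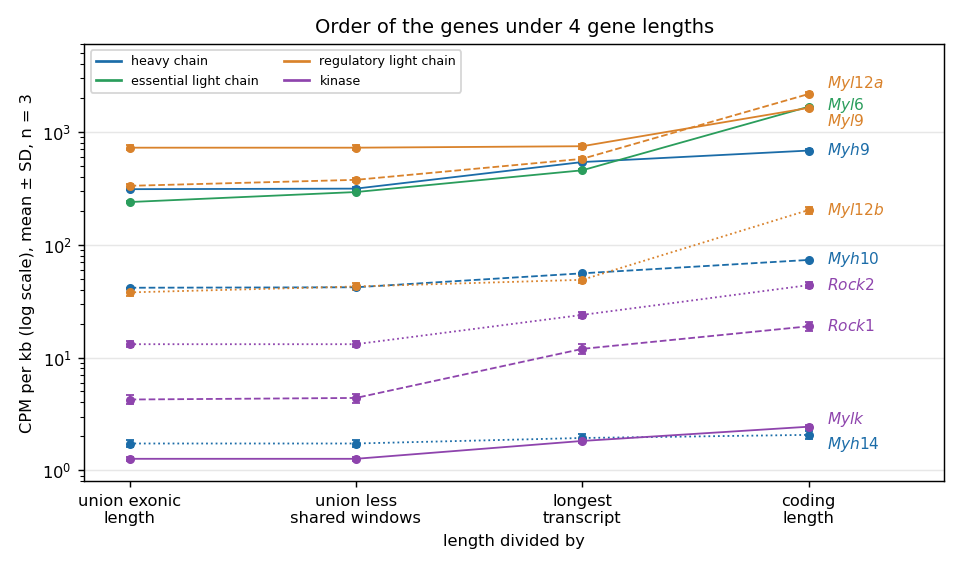
Mean CPM per kb with SD (n = 3, log axis) of the 10 genes when CPM is divided by different lengths. These are the union exonic length, that length scaled down by the share of windows with copies elsewhere, the longest transcript and the coding length. Myl9, Myl12a, Myh9 and Myl6 stay on top under each length, but Myl9 leads with 723 CPM per kb of exon and Myl12a with 2162 per kb of coding sequence.

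Light chain and heavy chain levels were then set side by side. The summed regulatory light chains reached 1093 ± 52.9 CPM per kb and the summed heavy chains 353 ± 7.52 (SD, n = 3), a ratio of 3.09-fold with 3.03-fold to 3.19-fold in single libraries. The ratio was 2.29-fold with the longest transcript and 5.27-fold with the coding length. Without any length correction the heavy chains were higher, with 4456 CPM against 2061. Myl6 lay below the summed regulatory light chains, at 0.218 of their level per kilobase of exon, 0.333 with the longest transcript and 0.418 with the coding length. Against the summed heavy chains Myl6 was at 0.675 per kilobase of exon and 0.763 with the longest transcript, but at 2.20 with the coding length. Its place relative to the heavy chains thus rested on the length. The coding length leaves out untranslated bases, and covers 456 of the 1668 bases of the longest Myl6 transcript but 5880 of 7433 for Myh9. The 3 kinases together amounted to 18.6 ± 1.05 CPM per kb (SD, n = 3), which was 0.0170 of the regulatory light chain level, 0.0274 with the longest transcript, 0.0163 with the coding length and 0.133 without length correction.

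**Figure D3:**
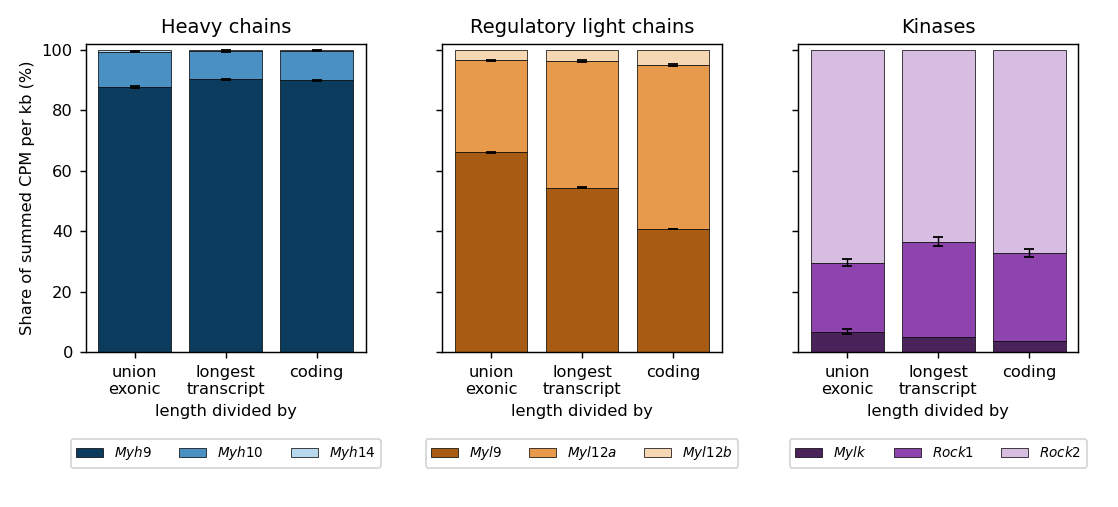
Stacked shares (%) of each gene in the summed CPM per kb of the heavy chains, regulatory light chains and kinases, as means of 3 libraries under 3 lengths; error bars, drawn for the larger shares, are the SD of the share that ends at that boundary. The Myh9 share stays between 87.8% and 90.3%, whereas the Myl9 share falls from 66.2% to 40.8%.

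Variation between the libraries was examined per gene, by a chi-square of its counts on the library sizes with Benjamini-Hochberg adjustment over 13814 genes and a threshold of 0.05. This test compares libraries of 1 condition and not conditions. Of the 10 genes 7 varied beyond counting error, where 43.9% of all genes tested did so. Such a call depends on depth, and 75.6% of the 2613 genes averaging 100 CPM or more varied. The genes that did not pass were Myh10 (adjusted p = 0.773), Myh14 (adjusted p = 0.0597) and Mylk (adjusted p = 0.410). The differences were small throughout, with a median SD of log2 CPM of 0.068 over the 10 genes and 0.080 over all genes tested. Over the 2613 genes averaging 100 CPM or more this median was 0.049, which is lower than over the 10 genes. These sets differ in depth, since Myh14, Mylk and Rock1 averaged only 12.6, 14.3 and 76.8 CPM. The significant genes ranged from Myl6, with 1.03-fold between libraries and adjusted p = 0.000148, to Rock1 with 1.20-fold and adjusted p = 5.05e-13. No member thus spanned 1.5-fold. Of all genes tested 3.84% both varied and exceeded that span, and at so small a share 10 genes may well hold none.

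Among the members that varied beyond counting error, replicate 2 was the highest library for myosin chains and the lowest for Rock1 and Rock2. All 7 chain genes and Mylk were highest in replicate 2, and Rock1 and Rock2 were lowest there. For Myh10, Myh14 and Mylk, which did not pass the test, this order lay within counting error. Among the genes past the test, 5 were highest in replicate 2 (Myh9, Myl6, Myl9, Myl12a and Myl12b), against 20.3% of all genes tested, and 2 were lowest (Rock1 and Rock2), against 17.4%. GC content moved with this pattern. Rock1 and Rock2 have transcripts with 40.2% and 41.4% GC, while the other members range from 50.4% in Myl12a to 60.8% in Myh14. Over all genes tested, the log2 deviation of replicate 2 from the mean of replicates 1 and 3 had a median of -0.14 in the tenth with at most 41.9% GC and 0.14 in the tenth with at least 58.3%. For 8 of the 10 genes the deviation of replicate 2 lay between the quartiles of the genes within 1 percentage point of their GC content. By definition 50% of the compared genes lie there, and those with few counts widen the range by counting error. This count of 8 therefore says little about the members. Rock1 deviated by -0.18 where the median of 642 genes of like GC content was -0.13, and Rock2 by -0.15 where the median of 807 genes was -0.12. The exceptions were Myl12a, at 0.10 where the upper quartile was 0.078, and Myl12b, at 0.16 where it was 0.10. With library sizes estimated within 50 bins of GC content, 4 of the 10 genes varied (Myh9, Myl12a, Myl12b and Rock1), against 28.9% of all genes. Without replicate 2 there were also 4 (Myh9, Myl9, Myl12a and Rock1), against 12.5%. The part of GC content in these differences was not tested further.

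**Figure D4:**
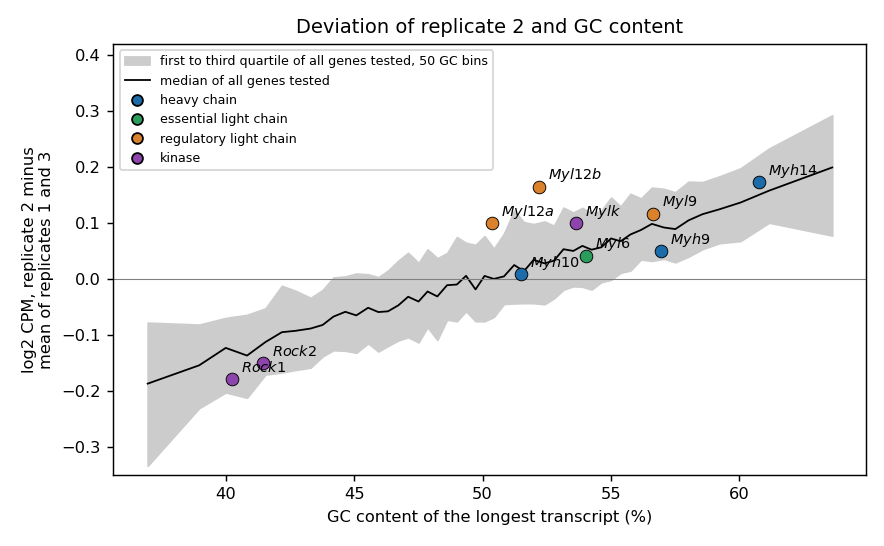
Log2 CPM of replicate 2 minus the mean of replicates 1 and 3, against the GC content (%) of the longest transcript; points are the 10 genes, and the line and band are the median and the quartiles of all genes tested in 50 bins of GC content. Rock1 and Rock2 lie at the low end of both axes, and Myl12a and Myl12b lie above the band.

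The wider machinery that controls myosin II was expressed in large part. Of 39 further genes, 36 were above 3 counts in every library, 34 had a mean of at least 1 CPM and 32 of at least 10 CPM. Of the 35 tested 24 varied beyond counting error, 10 of them highest in replicate 2 and 11 lowest, where the shares over all genes tested were 43.9%, 20.3% and 17.4%. Such calls depend on depth, and 75.6% of the genes averaging 100 CPM or more varied. Shares at the depth of the wider genes were not computed. The largest span among those 24 was that of Myl6b, at 1.27-fold. Of 11 other kinases that act on the light chain or its phosphatase, 7 had at least 1 CPM. Dapk3, also called ZIP kinase, was the highest per kilobase with 38.7 ± 4.21 CPM per kb (SD, n = 3), and thus above Rock2. Without length correction Dapk3 was below Rock2, with a mean of 98.1 CPM against 182. Mylk4 was the lowest with 0, 1 and 1 counts, and Dapk1 (4, 0 and 4 counts) and Dapk2 (1, 0 and 7 counts) were also not above the floor in every library. Among the other myosin light chain kinase genes, Mylk2 had 74, 90 and 66 counts and Mylk3 7, 7 and 9. Both were named for their kinship with Mylk after their values were known.

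All 7 genes of the myosin phosphatase and its inhibitors were above the floor, and 6 had at least 1 CPM. The highest per kilobase was the phosphatase inhibitor gene Ppp1r14b with 189 ± 2.99 CPM per kb, and the lowest its relative Ppp1r14c with 0.346 ± 0.0848 (SD, n = 3). Ppp1cb, the catalytic subunit, had 17.8 ± 1.28 CPM per kb and Ppp1r12a, the subunit that targets it to myosin and is itself phosphorylated by ROCK, 17.6 ± 0.537 (SD, n = 3). These genes were chosen for their role after their values were known. Among the calmodulin genes, whose product activates the Mylk kinase, Calm2 was the highest with 416 ± 10.5 CPM per kb (SD, n = 3). Of 5 filament assembly partners, S100a4, which binds the tail of myosin IIA, was the highest with 53.4 ± 1.73 CPM per kb. Lurap1 was the lowest with 1.41 ± 0.0990 (SD, n = 3 for each). The lead of S100a4 rested on length, since without length correction it had 31.2 CPM, below the 286 of Anln.

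Muscle myosin heavy chains were close to the floor, and no muscle light chain reached 1 CPM. Of 11 muscle heavy chain genes only Myh7b was above 3 counts in every library, with 13, 6 and 5 counts, and 7 genes had 0 counts in each library. For such a gene the floor of the smallest library is 0.0671 CPM. The 11 genes together reached 0.291 to 0.361 CPM, where the 3 non-muscle heavy chains reached 4360 to 4552 CPM. Of 6 muscle light chain genes Myl4, Myl7 and Mylpf were above the floor, led per kilobase by Mylpf with 26, 28 and 20 counts. Myl4 had 37, 43 and 33 counts, and Myl1, Myl2 and Myl3 were at 0. Both muscle genes with enough counts for the test did not pass it, Myl4 with adjusted p = 0.761 and Mylpf with adjusted p = 0.776.

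**Figure D5:**
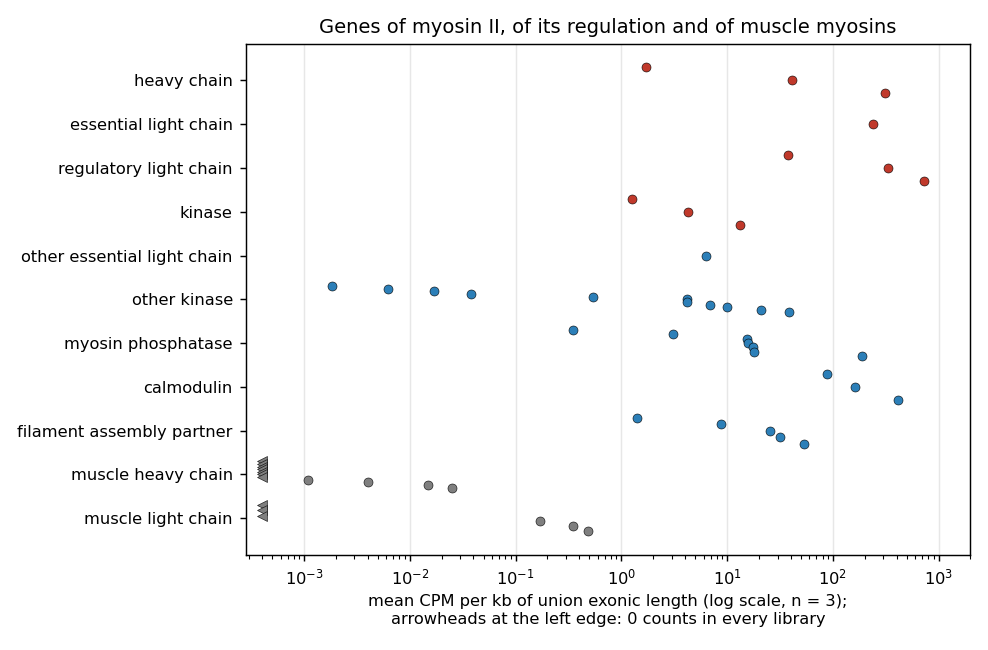
Mean CPM per kb of union exonic length (log axis, 3 libraries) of each gene, by role: members in red, the wider lists the text describes in blue and muscle myosins in grey, with arrowheads for genes at 0 counts. The muscle genes all lie at or below 0.482 CPM per kb, under the lowest member, Mylk, at 1.27.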

How the data were processed

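For each of 3 KO-actin libraries the authors deposited unnormalized read counts by Ensembl gene. Per the submitters' processing notes, Trimmomatic, FastQC, HISAT2 and HTSeq were used with mm10 and GRCm38; their versions, the annotation and the strand setting are not given in the sources used here. Symbols, exons and transcripts came from GENCODE M21 on GRCm38, matched by gene ID for 46005 of 46603 genes. CPM used TMM library sizes (edgeR 4.0.16, R 4.3.3). Alternatives were total counts or the size factors of DESeq2 1.42.0, count filters and leaving out each replicate. Each gene with at least 10 counts in every library was compared with the library sizes by a chi-square (2 degrees of freedom), with Benjamini-Hochberg adjustment; the script was tested on simulated data. With 1 condition there was no contrast to fit. Length was the union of exons, with other lengths as alternatives; the coding length was added after seeing the data. Shared windows of 50 or 100 bases were sought in all GENCODE transcripts on both strands. Where they are left out, the union length was scaled down by the share of 50-base windows with copies elsewhere. This share was taken from the longest transcript only, and the counts were not changed. All members were named; in the other lists the highest and the lowest gene per kilobase were named, as were genes varying by over 1.5-fold, of which there were none; 1 list and the lowest gene of another are not reported here. The members and lists were chosen with earlier results of these data known. Likeness to other genes over 3 libraries was not computed.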

Additional observations from a re-analysis of the deposited data

How the results depend on the processing

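No paired analysis was possible because the libraries form 1 group, and no other group shares their numbers. Length moved most comparisons between genes. The Myh9 share of the heavy chains was 90.3% with the longest transcript, 89.97% without length correction and 90.1% with the coding length. The Myl9 share of the regulatory light chains was 54.4%, 40.8% and 40.8% in turn, and 63.4% with shared windows left out. The Rock1 share of ROCK was 33.3%, 29.6% and 30.1%. On the log2 scale the regulatory light chain to heavy chain ratio, 1.63 per kilobase of exon, was 1.20 with the longest transcript, 2.40 with the coding length and 1.67 with shared windows left out, and it reversed to -1.11 without length correction. The essential to regulatory light chain ratio, -2.20, was -1.59, -1.26, -1.96 and -1.44 under the same alternatives in the same order.

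Of the 9 neighbouring pairs 5 kept their direction without length correction and 5 with the coding length. Without length correction the log2 differences reversed to -0.41 for Myl9 over Myl12a, -1.85 for Myl12a over Myh9, -0.80 for Myl12b over Rock2 and -0.18 for Myh14 over Mylk. With the coding length they reversed to -0.41 for Myl9 over Myl12a, -1.29 for Myh9 over Myl6, -1.47 for Myh10 over Myl12b and -0.24 for Myh14 over Mylk. With the exonic length scaled down by the share of windows with copies elsewhere, Myh10 over Myl12b was -0.021. This is smaller than its SD of 0.097 over the libraries, so the order of these genes is not settled by it. The log2 ratio of Myl12a to Myl9 was 0.41 without length correction and with the coding length, and that of Myl6 to the heavy chains 1.14 with the coding length. These changes follow from the lengths themselves.

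With library sizes set within bins of GC content, 3975 genes and 4 members varied, against 6063 and 7. Leaving out 1 replicate gave 1748 to 4786 genes and 4 to 8 members, both lowest without replicate 2. Other scalings and the stricter filter changed neither count by over 1.5 times. The number of wider genes with at least 1 CPM, 34, was within that limit under each alternative. Little can be said at this depth of genes near 3 counts, such as Mylk4, Dapk1, Dapk2 and the muscle heavy chains.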
